A study of Mus musculus with 2 samples.

Results

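Of the 2202 miRNA genes annotated in mouse and counted in adrenal gland, 5 belong to imprinted loci outside the large Dlk1-Dio3 cluster and are described here. They were chosen by name: Mir335 in Mest, Mir296 and Mir298 beside Gnas, Mir483 in Igf2 and Mir675 in H19. Small RNA below 30 nucleotides was sequenced from the adrenal glands of female B6CASTF1/J mice, a first-generation hybrid of C57BL/6J and the wild-derived CAST strain, aged 25 days. The labels name no treatment and give 1 group of 2 biological replicates, with glands numbered as those of separate animals under a shared donor identifier. The design holds no genotype, treatment or time contrast, so the levels describe the gland and the ratios compare 2 libraries. Differences of dissection, library preparation and sequencing cannot be told apart from differences between animals.

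An imprinted gene is expressed mainly from the chromosome inherited from one parent, and a miRNA processed from its transcript can carry the same parental bias. Mest and Igf2 are expressed from the paternal chromosome in mouse and H19 from the maternal one, while Mir296 and Mir298 are expressed from the paternal chromosome of the Gnas region. Igf2 and H19 neighbour each other, promote and restrain fetal growth respectively, and are known for high expression before birth. A miRNA binds target mRNAs through its seed, the bases 2 to 8 of the mature strand. The counts sum both arms of a hairpin and both parental alleles, so neither arm use nor allelic expression was measured.

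The mature sequences of the 5 genes show which seeds their reads can supply. They were taken from RefSeq (GRCm38.p6), which matched 5 of 5 genes with 10 mature arms, and the seed is in capitals.
mmu-miR-335-5p: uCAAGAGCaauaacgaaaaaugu
mmu-miR-335-3p: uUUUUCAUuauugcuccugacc
mmu-miR-298-5p: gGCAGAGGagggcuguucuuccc
mmu-miR-298-3p: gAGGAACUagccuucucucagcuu
mmu-miR-296-5p: aGGGCCCCcccucaauccugu
mmu-miR-296-3p: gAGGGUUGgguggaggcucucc
mmu-miR-483-5p: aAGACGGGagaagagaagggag
mmu-miR-483-3p: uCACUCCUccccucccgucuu
mmu-miR-675-5p: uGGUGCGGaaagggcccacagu
mmu-miR-675-3p: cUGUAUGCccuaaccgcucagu

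No seed was shared between members, and none of the 10 was the seed of a mature arm of another gene among the 1679 mature miRNA names of the table. The members therefore formed no seed family, although Mir296 and Mir298 are neighbours. Their base composition was uneven. The arms of Mir335 had 30.4% and 36.4% G and C, lower than all but 1.61% and 5.90% of the mature names, whose median was 52.2%. Both arms of Mir296 lay at the other end, with 66.7% and 68.2%. No member shared a stretch of 20 bases with another miRNA hairpin of the table on either strand. The table held 1005 hairpins against 2202 annotated miRNA genes, and none under the names of the abundant genes Mir143 and Mir122. Both searches therefore cover the sequences of the table only. Matches outside miRNA hairpins were not looked for. Multi-mapping reads, 28.4% and 27.5% of the 2 libraries, were counted for no gene.

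In mm10 coordinates Mir335 (ENSMUSG00000065501.1) spans chr6:30741299-30741396 on the plus strand, in an intron of all 7 Mest transcripts that cross it. Mir483 (ENSMUSG00000070140.1) spans chr7:142654924-142654996 on the minus strand, in an intron of 7 Igf2 transcripts and of the overlapping gene Gm49394. Mir675 (ENSMUSG00000076275.1) spans chr7:142577064-142577147 on the minus strand, within an exon of 3 of the 4 H19 transcripts that cross it. It lies 77776 bases from Mir483. Mir296 (ENSMUSG00000065521.1, chr2:174267047-174267125) and Mir298 (ENSMUSG00000065410.1, chr2:174267504-174267585) lie on the minus strand with 378 bases between them. GENCODE M21 has no other gene over either of them. The nearest gene on their strand was Nespas, the antisense transcript of the Gnas region, 13651 bases from Mir298, and Gnas itself began 16734 bases from Mir298 on the plus strand.

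Library 1 held 2244073 reads on the strand of a miRNA gene and library 2 held 3912280, from 7938596 and 11132685 reads in all. Levels are given in CPM, with such reads of a library scaled to a total of 1e6. A limit of 3 reads was set for a count of 0, or 1.34 CPM in library 1 and 0.767 CPM in library 2. Intervals and these limits cover counting error only, since the files record no molecular identifiers and copies made by PCR are not independent. With 10 or more reads in each library required, 4 of the 5 genes were detected, against 15.3% of all 2202 annotated miRNA genes. All reads of the 5 genes lay on the strand of the gene, with 0 on the opposite strand in both libraries.

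Mir335 was the most abundant member. Its miRNA is processed from an intron of Mest and is studied as a suppressor of tumour cell migration. Library 1 had 15356 reads, or 6843 CPM, and library 2 had 37802 reads, or 9662 CPM, with a mean of 8253 ± 1994 CPM (SD, n = 2). It ranked 28th among all miRNA genes in library 1 and 24th in library 2. Mir335 thus stood among the abundant miRNA genes of the gland in both libraries, and the level was higher in library 2.

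Mir298 came next. Its miRNA has been studied for its action on the amyloid-processing enzyme Bace1. Library 1 had 4309 reads, or 1920 CPM, and library 2 had 3388 reads, or 866 CPM, with a mean of 1393 ± 745 CPM (SD, n = 2). It ranked 55th in library 1 and 83rd in library 2. Unlike Mir335, this gene had its higher level in library 1, and fewer reads in the deeper library.

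Mir296, the neighbour of Mir298, encodes a miRNA known from growth factor signalling in endothelial cells. Library 1 had 627 reads, or 279 CPM, and library 2 had 1351 reads, or 345 CPM, with a mean of 312 ± 46.6 CPM (SD, n = 2). Its level was more even than those of Mir335 and Mir298, with CPM 1.24 times as high in library 2 as in library 1.

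The 2 members of the Igf2-H19 domain were at the low end. Mir483 lies in Igf2, which encodes a growth factor, and its miRNA is known for high levels in adrenocortical and kidney tumours. It had 22 reads in library 1, or 9.80 CPM (95% exact interval 6.14 to 14.8), and 26 reads in library 2, or 6.65 CPM (4.34 to 9.74). The mean was 8.22 ± 2.23 CPM (SD, n = 2), and the intervals of the libraries overlapped. Mir675 is cut from the noncoding RNA H19 and is known to limit placental growth. It had 0 reads in library 1, where the limit of 3 reads is 1.34 CPM and the 95% exact interval reaches 1.64 CPM. Library 2 had 3 reads of Mir675, or 0.767 CPM (0.158 to 2.24). Mir675 was therefore not distinguishable from the limit of detection at this depth, and no ratio between libraries is given for it.

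**Figure D1:**
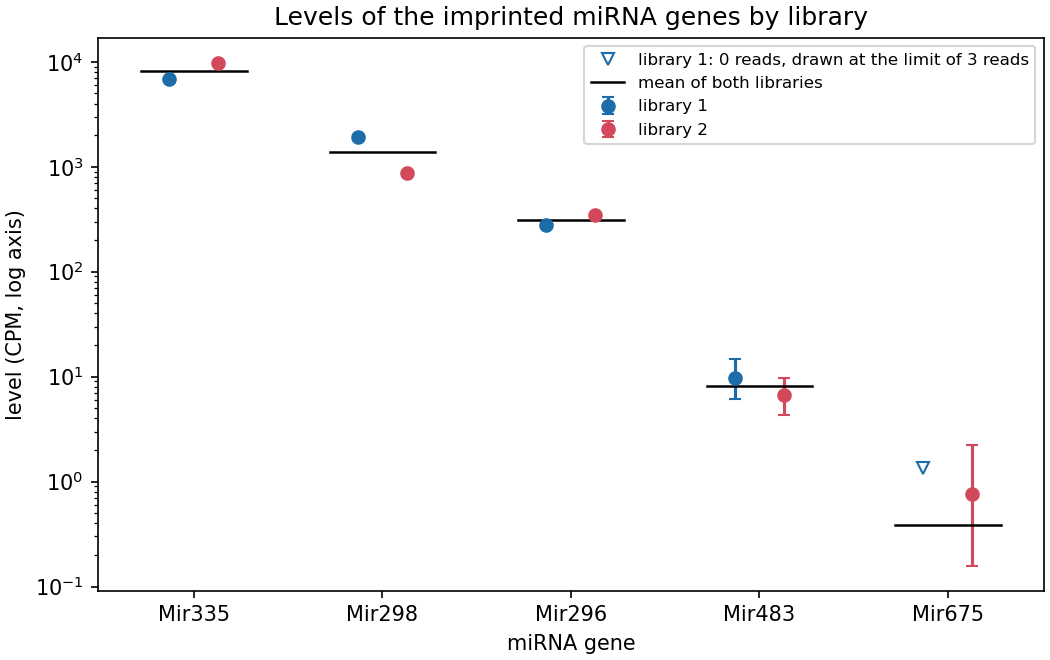
Level of each of the 5 miRNA genes in CPM on a log axis, with filled points for libraries 1 and 2, 95% exact counting intervals as bars and the mean as a black line; the open triangle marks a count of 0 at the limit of 3 reads. The levels span from 8253 CPM for Mir335 to 0.383 CPM for Mir675, and Mir298 and Mir296 lie on opposite sides of their means in the same library.

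The order of the levels was Mir335, Mir298, Mir296, Mir483 and Mir675 in each library. The libraries of neighbouring genes in this order did not overlap, down to Mir483 with 6.65 CPM or more against Mir675 with 0.767 CPM or less. Scaling to 100 bases of annotated hairpin, which ran from 73 bases for Mir483 to 98 bases for Mir335, kept the same order. On that scale the mean levels were 8421 CPM for Mir335, 1699 for Mir298, 395 for Mir296, 11.3 for Mir483 and 0.456 for Mir675. Small RNA libraries also capture different miRNAs with unequal efficiency, so the distances between genes are those of reads and not of molecules.

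Within a library the level of one member against another does not depend on the scaling. Mir298 had 6.87 times the reads of Mir296 in library 1 (95% exact interval 6.32 to 7.48) and 2.51 times in library 2 (2.35 to 2.67). The ratio thus differed 2.74-fold between libraries (95% interval from counting error 2.47 to 3.04). Mir335 had 3.56 times the reads of Mir298 in library 1 (3.45 to 3.69) and 11.2 times in library 2 (10.8 to 11.6). Against Mir296, Mir335 stayed closer, with 24.5 times the reads in library 1 (22.6 to 26.6) and 28.0 times in library 2 (26.5 to 29.6). Of the 3 abundant members, Mir298 was therefore the one whose level against the others differed most between libraries.

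Summed, the 5 genes took 20314 reads in library 1 and 42570 in library 2, or 0.905% and 1.09% of the miRNA gene reads. Mir335 supplied 75.6% of these reads in library 1 and 88.8% in library 2, Mir298 21.2% and 7.96%, and Mir296 3.09% and 3.17%. The summed level of the group is thus mostly the level of Mir335, and the makeup differed in how Mir335 and Mir298 divided it.

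**Figure D2:**
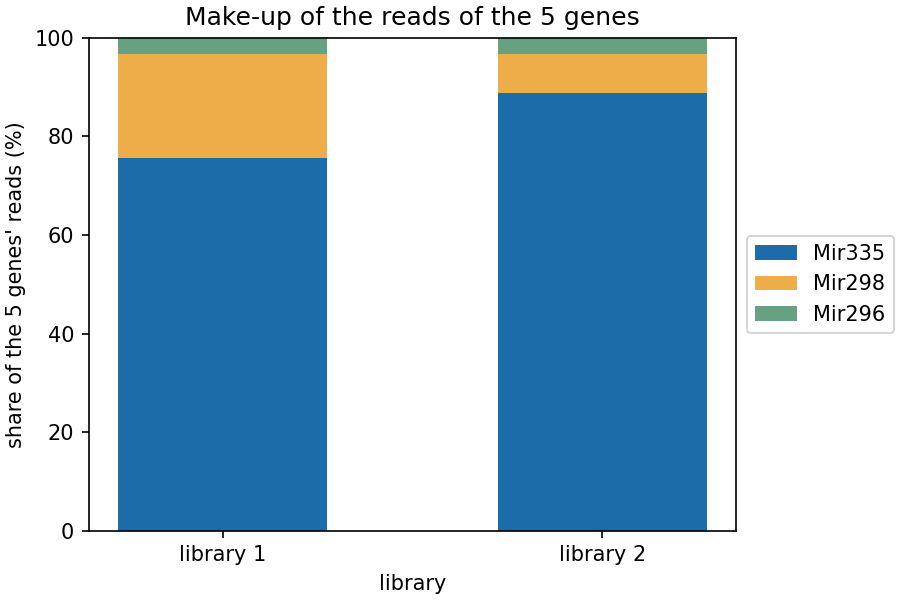
Share in percent of the reads of the 5 genes that came from each gene, stacked for library 1 and library 2. Mir298 takes 21.2% in library 1 and 7.96% in library 2, while Mir296 takes 3.09% and 3.17%; Mir483 and Mir675, with 0.108% and 0.0681% together, are too small to draw.

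How far each member differed between the libraries was measured as a ratio of library 2 over library 1, with effective library sizes from edgeR's TMM scaling. A two-sided exact binomial test was run on each of the 411 miRNA genes whose libraries together held 10 or more reads, with Benjamini-Hochberg adjustment over all 411. Mir335 was 1.499-fold higher in library 2 (log2 ratio 0.58, 95% interval 0.56 to 0.61), with an adjusted p of 1e-300 or less in the exact test. Mir298 was 2.09-fold higher in library 1 (log2 ratio -1.06, interval -1.13 to -0.998, adjusted p = 2.71e-226 in the exact test). Mir296 was 1.31-fold higher in library 2 (log2 ratio 0.39, interval 0.25 to 0.53, adjusted p = 3.83e-08 in the exact test). Mir483 had a log2 ratio of -0.48 with an interval from -1.29 to 0.33 and did not pass (adjusted p = 0.406 in the exact test). This interval spans from a 2.45-fold higher level in library 1 to a higher level in library 2, so 48 reads do not settle its direction.

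The small p-values reflect the read numbers and compare these libraries only. Of the 4 tested members, 3 passed an adjusted p of 0.05, and 58.4% of all 411 tested genes did so too. With a ratio of 1.5-fold or more required as well, Mir298 alone remained of the 4, against 31.4% of all tested genes. Mir335 lay just under that limit and passed it with DESeq2 size factors (log2 ratio 0.65). The median log2 ratio of the 4 tested members was -0.04 and that of all tested genes -0.07, and the median size of the log2 ratio, regardless of sign, was 0.53 and 0.50. The sizes of the members' ratios thus lay near those of all tested genes, with members in both directions.

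Among single genes, 65 of the 411 tested genes (15.8%) had a larger ratio in either direction than Mir298. For Mir335 this share was 42.3%, for Mir483 51.8% and for Mir296 59.6%. Among tested genes within 2-fold of its mean level, 4 of 47 had a larger ratio than Mir298, 10 of 20 than Mir335 and 33 of 65 than Mir296. Mir298 was thus toward the variable end for its level, and Mir335 and Mir296 near the middle.

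**Figure D3:**
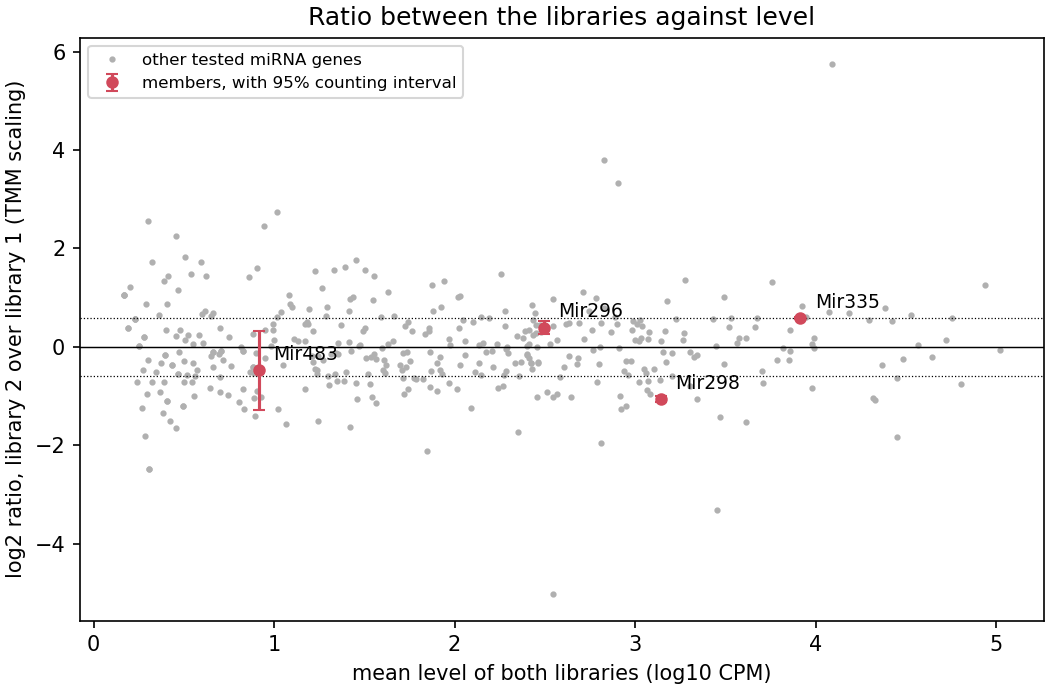
Log2 ratio of library 2 over library 1 with TMM scaling, against the mean level of both libraries in log10 CPM, for tested miRNA genes in grey and the 4 tested members in red with 95% counting intervals; dotted lines mark 1.5-fold. Mir298 at -1.06 lies outside the dotted lines, Mir335 at 0.58 lies on one of them, and Mir296 and Mir483 lie between them.

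Mir296 and Mir298 differed in direction between the libraries although only 378 bases lie between them. Their hairpins carry the 2 mature arms in capitals, printed on the minus strand that both genes use.
Mir298 (chr2:174267504-174267585): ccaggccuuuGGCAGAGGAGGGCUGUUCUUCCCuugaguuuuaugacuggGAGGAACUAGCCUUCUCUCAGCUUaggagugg
Mir296 (chr2:174267047-174267125): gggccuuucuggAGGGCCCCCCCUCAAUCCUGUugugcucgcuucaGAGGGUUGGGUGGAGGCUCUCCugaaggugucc
The folding energy that RNAfold gave was -42.7 kcal/mol for Mir298 and -43.2 kcal/mol for Mir296, so these hairpins were of similar predicted stability. Per base, they were more stable than 87.5% and 91.5% of the 1005 mouse hairpins in the table. Mir675, with few or no reads, had the lowest predicted energy of the 5, at -56.0 kcal/mol, and Mir335 had -44.3 kcal/mol. Whether folding bears on the level was not tested.

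Pairs of detected genes that follow each other on a strand with at most 10 kb between them were used to describe how unusual this difference was. In the 108 such pairs the log2 ratios of the 2 genes differed by a median of 0.51, and those of Mir296 and Mir298 differed by 1.45. In 11 of the 108 pairs the difference was larger. Among the 74 pairs whose genes both had 100 or more reads in each library, it was larger in 5. Opposite directions with both genes past an adjusted p of 0.05 in the exact binomial test occurred in 32 of the 108 pairs. Many of the pairs lie in the Dlk1-Dio3 cluster, and a gene within a row of neighbours enters 2 pairs, so the pairs are not independent. Mir411 and Mir451a, each in a pair with a larger difference, share 20 bases with another hairpin on one strand or the other. Their counts are uncertain where reads match both places. Mir16-2, Mir29b-1, Mir92-1, Mir181a-2 and Mir181b-2, also in pairs with a larger difference, each have a further gene copy of the same miRNA. Reads that map to both copies were counted for no gene, so these counts are incomplete. The opposite directions of Mir296 and Mir298 were not rare among these pairs, while the size of the difference was in the upper part of the range. In level the pair was typical, with a difference of 2.16 on the log2 CPM scale against a median of 2.12.

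**Figure D4:**
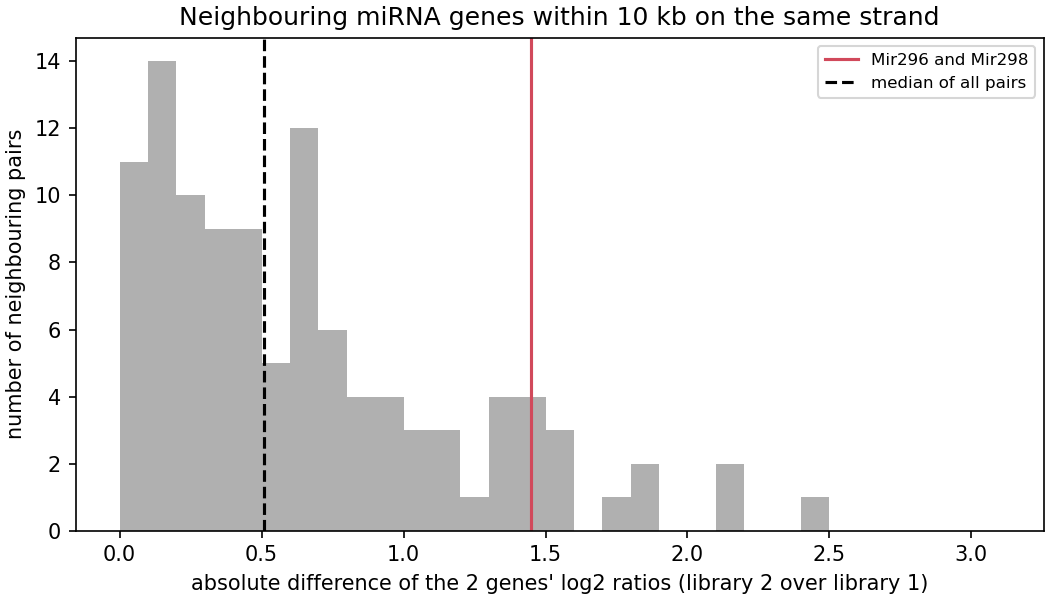
Number of neighbouring pairs of detected miRNA genes (same strand, within 10 kb) by the absolute difference of their log2 ratios of library 2 over library 1. The red line marks Mir296 and Mir298 at 1.45, and the dashed line marks the median of the 108 pairs at 0.51.

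Markers of other cell types also differed between the libraries. The 2 erythroid markers (Mir451a and Mir144) summed to 633 CPM in library 1 and 25693 CPM in library 2, the hepatocyte marker Mir122 to 5185 and 491 CPM, and the endothelial marker Mir126a to 53763 and 121007 CPM. Mir486, a further red blood cell miRNA that is not in the list and was added after its values were seen, went the other way, with 47.7 and 22.0 CPM. Its values rest on 107 and 86 reads, and its hairpin was not checked for stretches shared with others, so its counts are uncertain. The 5 smooth muscle and fibroblast markers, 4 of them detected, summed to 28927 and 41797 CPM. Mir143 made up this increase, with 27293 and 40553 CPM, while Mir214 had 781 and 449 CPM, Mir145a 847 and 789 CPM and Mir199a-2 7.13 and 6.39 CPM. The 12 neuroendocrine and neural markers, 6 of them detected, summed to 42237 and 43382 CPM, with the 3 Mir124a genes and Mir9-2 at 0 in both libraries. Mir375 made up most of this sum, with 37574 and 36561 CPM. The other detected markers of this list were all higher in library 2. Mir7b had 3921 and 5543 CPM, Mir137 421 and 794 CPM and Mir7-1 262 and 335 CPM. Mir7-2 had 45.9 and 104 CPM and Mir153 13.4 and 43.7 CPM. The 4 leukocyte markers were all detected, with a sum of 1088 and 913 CPM. They went in both directions, with Mir142 at 199 and 337 CPM, Mir150 at 433 and 215 CPM, Mir223 at 116 and 25.0 CPM and Mir155 at 341 and 335 CPM. No striated muscle marker (0 of 7, with both Mir1a and both Mir133a genes and Mir208a at 0) and no exocrine pancreas marker (0 of 3, with Mir216b at 0) was detected. Mir1a, Mir133a, Mir124a and Mir9 have several gene copies with the same mature sequence, whose reads map to several places and were counted for no gene, so a count of 0 there does not show absence. Like Mir486, the detected markers Mir122, Mir143, Mir145a and Mir150 were not checked for shared stretches. Mir451a, Mir126a, Mir142, Mir7-1, Mir7-2 and Mir199a-2 share 20 bases with another hairpin on one strand or the other. The same caution therefore holds for the counts of these markers. A further setting, chosen after the data were seen, used library sizes without TMM scaling. The erythroid, hepatocyte, endothelial and smooth muscle markers were also left out of those sizes. The log2 ratios were then 0.67 for Mir335, -0.98 for Mir298, 0.47 for Mir296 and -0.40 for Mir483. Without TMM scaling but with these markers kept, they were 0.50, -1.15, 0.30 and -0.57 in the same order. Whether the members' own ratios follow the cell makeup of the glands was not tested. In bulk tissue, fewer cells of a type and less RNA per cell cannot be told apart.

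The genes with the most similar levels over the 2 libraries were found by their distance in log2(CPM + 1). Nearest to Mir335 were Mir30e (7234 and 10395 CPM in libraries 1 and 2), Mir411 (6266 and 10470 CPM) and Mir379 (6561 and 7831 CPM). Mir411 and Mir379 belong to the imprinted Dlk1-Dio3 cluster. Nearest to Mir298 were Mirlet7c-2 (1630 and 794 CPM), Mir615 (1731 and 1017 CPM) and Mir455 (1541 and 790 CPM). Nearest to Mir296 were Mir18 (277 and 322 CPM), Mir7-1 (262 and 335 CPM) and Mir434 (264 and 301 CPM), the last also of the Dlk1-Dio3 cluster. Nearest to Mir483 were Mir3067, Mir26a-1 and Mir7688, from 8.91 to 9.36 CPM in library 1 and from 6.13 to 6.39 CPM in library 2. Mir411, Mirlet7c-2, Mir7-1 and Mir26a-1 share 20 bases with another hairpin on one strand or the other, so their counts are uncertain where reads match both places. Mir615 and Mir455 were not checked for shared stretches. With 2 libraries this likeness describes level and ratio only.

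The other imprinted miRNA loci were set beside the members. In the Dlk1-Dio3 interval of chromosome 12, whose miRNAs are expressed from the maternal chromosome, 51 of 67 annotated genes were detected. Their share of the reads was 4.41% and 5.28% in the 2 libraries. Its most abundant gene, Mir127, had 9398 and 14498 CPM, so Mir335 had a level of the same order as the leading gene of the cluster. Of its 51 tested genes, 37 passed the exact binomial test at an adjusted p of 0.05, and 15 also reached 1.5-fold. Of all 411 tested genes, 240 (58.4%) passed and 129 (31.4%) also reached 1.5-fold. The median log2 ratio of the cluster was -0.11. In the Sfmbt2 interval of chromosome 2, expressed from the paternal chromosome, 6 of 119 annotated genes were detected, with 0.0845% and 0.103% of the reads. Many genes of that cluster are near-identical, so multi-mapping reads are missing from its sum. Its most abundant gene, Mir467d, had 369 and 489 CPM, near the level of Mir296.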

How the data were processed

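The authors deposited 1 table of raw read counts per miRNA gene for each of the 2 libraries, without normalization or pooling. Mapping was to mm10, per the labels, with GENCODE M21 as annotation, per the deposited text files. The aligner, the counter and the trimming were not given in the sources used here. Column 3 was taken as reads on the strand of the gene, inferred from the layout and the totals. Rows without a gene entered neither library sizes nor tests: unmapped reads were 33.8% and 27.8%, and reads outside miRNA genes 9.57% and 9.53%. All 2202 identifiers matched GENCODE M21. Reads with CAST variants may map less well.

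Used were Python 3.11.15, scipy 1.17.1, pandas 2.3.3, numpy 2.4.6, matplotlib 3.10.9, R 4.3.3, edgeR 4.0.16 (TMM), DESeq2 1.42.0 (size factors) and RNAfold 2.7.2. With 1 group, a quasi-likelihood test has no coefficient, so the exact binomial test, conditional on the sum, was run across all genes with at least 10 reads over both libraries. Log2 ratios add 0.5 read to each count. The test was tested on simulated data. Named are the 5 members, for each detected member the 3 genes nearest in level, the leading gene of each other imprinted cluster, host genes and markers. Mir298's comparison with its neighbour was chosen after its values were seen. The members and lists were chosen with earlier results of these data known. Where p-values compare libraries, their spread may be technical. The closing section gives the effect of other scalings, filters and the unstranded column.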

Additional observations from a re-analysis of the deposited data

How the results depend on the processing

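No paired analysis was possible because the labels give a single group. Besides values with 1 replicate left out, there were 63 alternative values. Of these, 53 were classed as the same and 0 reversed. Ratios classed as the same kept their direction and side of an adjusted p of 0.05. Levels and shares stayed within 1 SD, and counts within 1.5 times. The 1.5-fold limit was not part of the rule for ratios. The ratio of Mir335 was thus classed as the same where it passed that limit, as at 0.65 with DESeq2 size factors. The count of detected members was 3 in place of 4 with 100 or more reads required, as Mir483 no longer passed. Scaled to all reads in the table, unmapped ones included, and to a total of 1e6, the mean levels were 2665 for Mir335, 424 for Mir298, 100 for Mir296 and 2.55 for Mir483, and the share of the 5 genes was 0.319%. In the unstranded column, whose total is smaller because reads at overlapping genes are set aside, Mir296 had 381 CPM and the share was 1.21%. The number of members past an adjusted p of 0.05 and 1.5-fold was 2, Mir335 being the second, with DESeq2 size factors, with no filter on low counts and with 100 or more reads in each library. Of all genes tested under these settings, the share past both limits was 32.1%, 17.0% and 36.8%. Leaving out the filter moved all log2 ratios by 0.17. Mir483 could not be tested with 100 or more reads required, nor Mir675 in the main test. With 1 replicate left out no ratio exists, and the levels are those of the other library (Mir298 866 or 1920 CPM). With n = 2 such a level always lies within 1 SD of the mean, so it says nothing about stability.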

Other observations

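The Gnas region holds 1 more annotated miRNA gene within 100 kb of Mir296 and Mir298. This gene, Gm27591, lies 19051 bases from Mir296 on the plus strand and had 0 reads in both libraries, so all reads counted for miRNA genes there came from Mir296 and Mir298. Around Mir335 no other annotated miRNA gene lies within 100 kb, and Mir483 and Mir675 have only each other.

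The hairpins of the members differ in composition as their mature arms do. That of Mir335 had 42.9% G and C, a lower share than most of the 1005 hairpins of the table (18.8% were lower), while those of Mir296 and Mir675 had 63.3% and 63.1%. Mir296 was well counted and Mir675 was not, with mean levels of 312 and 0.383 CPM. Whether composition bears on the level was not tested.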
